A study of Homo sapiens with 3 samples.

Results

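The 9 genes described here make, cut, carry and display the peptides of HLA class I molecules: the heavy chain genes HLA-B, HLA-C and HLA-E, the light chain gene B2M, the peptide transporter genes TAP1 and TAP2, the tapasin gene TAPBP, and the immunoproteasome subunit genes PSMB8 and PSMB9. They were chosen by name, with earlier results of these data known. Only their 69 transcripts placed on chromosomes were used, so that copies on alternate haplotype scaffolds stayed out of the gene levels. They are 9 of the 60506 genes listed on chromosomes and 9 of the 13923 genes whose summed FPKM averaged at least 1 over the 3 libraries, so all of them entered every comparison. FPKM scales the reads counted on a transcript by its length and by the depth of its library.

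RNA came from HaCaT cells, an immortalized human keratinocyte line, after transfection with 10 nM siRNA. The series asked how expression in these cells depends on SRSF5, an RNA-binding protein that takes part in splice site choice. There were 3 libraries. In 1 the cells had received SRSF5 siRNA 1 and in 1 they had received SRSF5 siRNA 2, both labelled as SRSF5 knockdown, and in 1 they had received control siRNA, labelled WT. Nothing in the labels says that a transfection was repeated, so the knockdown group (n = 2) spans a pair of siRNAs and the control stands on 1 library (n = 1).

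Class I molecules show short peptides from inside the cell to cytotoxic T cells and natural killer cells. Proteasomes cut proteins into peptides, TAP1 and TAP2 pump the peptides into the endoplasmic reticulum, and tapasin holds an empty heavy chain and its B2M light chain at the pump until a fitting peptide is bound. Interferons raise this pathway in keratinocytes and most other cells, and replace subunits of the standard proteasome by the immunoproteasome subunits PSMB8, PSMB9 and PSMB10.

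The 3 libraries held 4131746150 (siRNA 1), 4030833139 (siRNA 2) and 4351808495 (control) base overlaps with transcripts on chromosomes. SRSF5 itself averaged 2.33 FPKM per transcript with siRNA 1, 0.983 FPKM with siRNA 2 and 4.95 FPKM in the control, so both siRNA libraries matched their labels. All 10 keratinocyte markers passed the filter on low values, with summed levels of 1177 (siRNA 1), 2034 (siRNA 2) and 1007 (control) FPKM per transcript. Most of the higher sum with siRNA 2 was KRT14, at 1055 FPKM per transcript with siRNA 2 and 238 in the control. SFN, ITGB4 and ITGA6 were below the control with siRNA 2, and the remaining markers above it. The part of this higher sum with siRNA 2 in the results that follow was not tested. Leukocyte markers, which belong to cells rich in class I and immunoproteasome RNA, summed to 0.896 (siRNA 1), 1.11 (siRNA 2) and 0.877 (control) FPKM over 9 genes, and 1 of them passed the filter. The fibroblast, endothelial and melanocyte marker sums lay between 0.212 and 0.574 FPKM in the 3 libraries, with 1 marker of each list past the filter and 3 melanocyte markers at 0 in every library. These are bulk libraries, in which fewer expressing cells and less RNA per cell cannot be told apart.

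Many class I pathway genes carry, near their start, an element bound by interferon regulatory factors. It is shown here because it joins most of the members in a feature that expression did not choose. The letters AANNGAAA were searched on both strands of the RefSeq promoter windows of GRCh38.p14, which run from 250 bases before to 50 bases after each start, and 22.8% of 35116 windows held at least 1 match. The members had 10 windows over 8 genes, of which 7 windows (70.0%) held a match, 1 for each of 7 genes. The second windows of TAP1 and PSMB8 held none. Each stretch below is printed 5′ to 3′ on the strand of its gene, and capitals mark the match or its reverse complement, with overlapping or adjoining matches joined.
HLA-B: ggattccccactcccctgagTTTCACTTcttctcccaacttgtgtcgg
HLA-C: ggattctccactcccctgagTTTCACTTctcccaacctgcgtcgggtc
B2M: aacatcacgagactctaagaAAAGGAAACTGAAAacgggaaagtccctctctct
TAP1: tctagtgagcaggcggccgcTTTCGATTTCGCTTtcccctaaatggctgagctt
TAP2: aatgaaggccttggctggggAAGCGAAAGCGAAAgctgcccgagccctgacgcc
TAPBP: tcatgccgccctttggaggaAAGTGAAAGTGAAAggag
PSMB8: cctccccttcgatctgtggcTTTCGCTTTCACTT

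The stretches lie at chr6:31357307-31357354 (HLA-B, minus strand), chr6:31272216-31272263 (HLA-C, minus strand), chr15:44711355-44711408 (B2M, plus strand), chr6:32853805-32853858 (TAP1, minus strand), chr6:32838768-32838821 (TAP2, minus strand), chr6:33314079-33314116 (TAPBP, minus strand) and chr6:32844038-32844071 (PSMB8, minus strand). Counted from the start of transcription, the capitals began at -155 in HLA-B, -151 in HLA-C, -142 in B2M, -134 in TAP1, -62 in TAP2, -18 in TAPBP and -4 in PSMB8. HLA-B and HLA-C held 1 match each, and the other 5 genes held a pair. The window of PSMB9 held no match to these letters. PSMB9 and TAP1 are divergent neighbours, and the TAP1 stretch lies upstream of the RefSeq starts of TAP1 (32853704) and PSMB9 (32854192), which are 488 bases apart, although longer models in the deposited files cover it from both genes. A match is a run of letters and shows no binding. Genes with a match included HLA-B and HLA-C, which were above the control in both siRNA libraries, and TAP1, TAP2, TAPBP and PSMB8, which were below it with siRNA 2.

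The heavy chain genes were higher with either SRSF5 siRNA than in the control, and the genes that supply and load peptides were lower with siRNA 2. HLA-B and HLA-C were highest with siRNA 1 and lowest in the control. TAP1, TAP2, TAPBP, PSMB8 and PSMB9 had their lowest value with siRNA 2, at 44.8% to 57.2% of the control. B2M and HLA-E were within 0.18 of the control on the log2 scale in both siRNA libraries. None of these differences passed limma, which did not call the lower level of SRSF5 itself either (mean log2 difference -1.67).

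**Figure D1:**
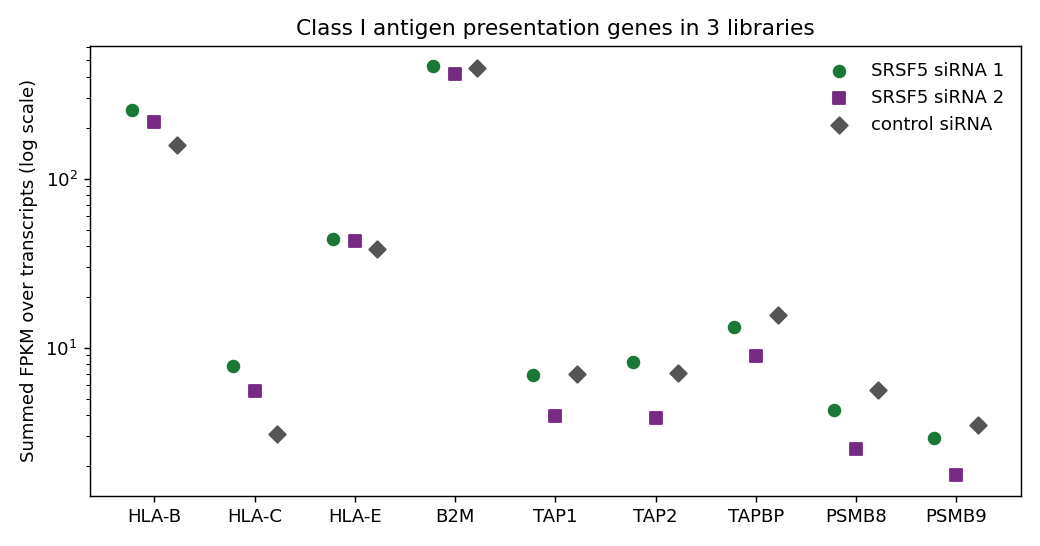
Summed FPKM over the listed transcripts of each gene, on a log scale, in the SRSF5 siRNA 1, SRSF5 siRNA 2 and control siRNA libraries. The siRNA 2 point is the lowest of the 3 for TAP1, TAP2, TAPBP, PSMB8 and PSMB9, and the control point is the lowest for HLA-B, HLA-C and HLA-E.

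HLA-B encodes a polymorphic heavy chain that presents peptides to cytotoxic T cells. The gene (ENSG00000234745.11, chr6:31269491-31357188, minus strand, as the files place its transcripts) had a summed level of 254.0 FPKM with siRNA 1, 214.8 FPKM with siRNA 2 and 158.9 FPKM in the control. Both siRNA libraries stood above the control, at 160% (siRNA 1) and 135% (siRNA 2) of its level. On the scale log2(summed FPKM + 1) the differences from the control were 0.67 with siRNA 1 and 0.43 with siRNA 2, or 0.55 ± 0.17 (SD, n = 2). The spread between the siRNAs was smaller than this mean, but in limma with Benjamini-Hochberg adjustment over all genes HLA-B did not pass (SE 0.37, unadjusted p = 0.163, adjusted p = 1.00). The transcript with the most bases, HLA-B-249, held 1429 read equivalents of 100 bases with siRNA 1, 1136 with siRNA 2 and 907 in the control. Its log2 ratio to the control had a 95% counting interval of 0.61 to 0.85 with siRNA 1 and of 0.31 to 0.56 with siRNA 2, so counting error alone is small beside the difference. The transcript with the highest FPKM was HLA-B-257, a coding model of 147 bases, with 54.8 FPKM (siRNA 1), 49.8 FPKM (siRNA 2) and 36.1 FPKM (control). All 10 HLA-B transcripts were higher in both siRNA libraries than in the control, but transcripts of a gene share reads and are not separate measurements. Coding models summed to 162.4 (siRNA 1), 140.5 (siRNA 2) and 102.9 (control) FPKM. Retained intron models summed to 91.6 (siRNA 1), 74.3 (siRNA 2) and 56.0 (control) FPKM, and so differed between the libraries in the same order as the coding ones.

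HLA-C encodes the heavy chain that is the main ligand of inhibitory killer cell receptors. On chromosome 6 the gene (ENSG00000204525.16, chr6:31268749-31272130, minus strand) had a summed level of 7.77 FPKM with siRNA 1, 5.52 FPKM with siRNA 2 and 3.09 FPKM in the control. Its log2 differences from the control were 1.10 with siRNA 1 and 0.67 with siRNA 2, or 0.89 ± 0.30 (SD, n = 2). These were the largest upward differences among the members, and limma gave them the smallest p of the 9 genes (SE 0.44, unadjusted p = 0.069, adjusted p = 1.00). HLA-C rests on few reads there, with 50.3 (siRNA 1), 35.1 (siRNA 2) and 20.9 (control) read equivalents on its largest transcript. The 95% counting interval of that transcript's log2 ratio was 0.57 to 2.14 with siRNA 1 and 0.03 to 1.70 with siRNA 2. The highest transcript, HLA-C-204, was at 1.33 FPKM (siRNA 1), 0.929 FPKM (siRNA 2) and 0.532 FPKM (control). One HLA-B model, HLA-B-258, extends into HLA-C and shares 35 bases of exon with it on the same strand.

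Most HLA-C signal lay outside chromosome 6. The class I region is highly polymorphic, and the deposited annotation lists copies of it on alternate haplotype scaffolds, so that reads of near-identical copies could be placed on either. The highest of the 7 HLA-C copies was on such a scaffold, with a summed level of 499.7 FPKM with siRNA 1, 291.6 FPKM with siRNA 2 and 211.8 FPKM in the control. That copy was 68.5 times the chromosome 6 copy in the control library. Its log2 differences from the control were 1.23 with siRNA 1 and 0.46 with siRNA 2, so with siRNA 2 it was less than 1.5-fold higher. All 7 copies were higher with siRNA 1, by 0.81 to 1.23, and 6 of 7 were higher with siRNA 2, over a range of -0.05 to 0.67. The chromosome 6 copy was the 1 of 7 that was at least 1.5-fold higher in both. For HLA-B the chromosome 6 copy was the highest of 6, and all 6 copies were higher with siRNA 1 (0.67 to 1.13) and with siRNA 2 (0.43 to 0.73). Which HLA alleles these cells carry, and how reads that match several copies were placed, is not known here, so HLA-B and HLA-C levels are uncertain.

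**Figure D2:**
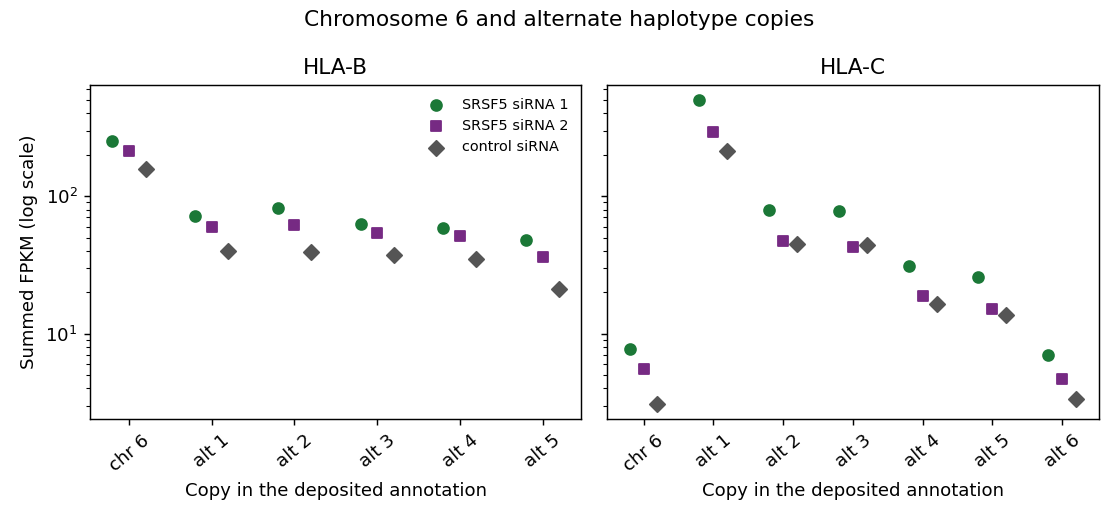
Summed FPKM, on a log scale, of each listed copy of HLA-B (left) and HLA-C (right) in the SRSF5 siRNA 1, SRSF5 siRNA 2 and control siRNA libraries, with the chromosome 6 copy first and alternate haplotype copies (alt) by falling level. The siRNA 1 point is the highest for every copy, and the first alternate HLA-C copy lies at 499.7, 291.6 and 211.8 FPKM, far above its chromosome 6 copy.

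HLA-E encodes a heavy chain of low variability that shows leader peptides of other class I chains to natural killer cells. It (ENSG00000204592.9, chr6:30489509-30494194, plus strand) had a summed level of 43.7 FPKM with siRNA 1, 42.8 FPKM with siRNA 2 and 38.5 FPKM in the control. The 3 libraries were close, at 113% (siRNA 1) and 111% (siRNA 2) of the control. The log2 differences were 0.18 with siRNA 1 and 0.15 with siRNA 2, or 0.16 ± 0.02 (SD, n = 2), and limma did not call them (SE 0.38, unadjusted p = 0.673, adjusted p = 1.00). Its full-length coding transcript HLA-E-201 was at 11.2 FPKM (siRNA 1), 12.4 FPKM (siRNA 2) and 10.2 FPKM (control). The highest transcript was the retained intron model HLA-E-203, at 17.1 FPKM (siRNA 1), 16.2 FPKM (siRNA 2) and 14.9 FPKM (control). The coding model was highest with siRNA 2 and the intron-retaining model with siRNA 1, and no library repeats either siRNA.

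B2M encodes beta-2 microglobulin, the light chain of all classical and nonclassical class I heavy chains. It (ENSG00000166710.20, chr15:44711487-44718877, plus strand) had a summed level of 461.1 FPKM with siRNA 1, 418.2 FPKM with siRNA 2 and 449.0 FPKM in the control. The siRNA 1 library was slightly above and the siRNA 2 library slightly below the control, by 0.04 and -0.10 on the log2 scale, or -0.03 ± 0.10 (SD, n = 2; limma SE 0.38, unadjusted p = 0.934, adjusted p = 1.00). Per transcript B2M averaged 32.9 FPKM (siRNA 1), 29.9 FPKM (siRNA 2) and 32.1 FPKM (control), more than HLA-B in each library, which averaged 25.4 (siRNA 1), 21.5 (siRNA 2) and 15.9 (control) FPKM per transcript. The highest B2M transcript was B2M-203, annotated as a target of nonsense-mediated decay, at 61.6 FPKM (siRNA 1), 55.2 FPKM (siRNA 2) and 58.6 FPKM (control). It is only 407 bases long and shares its exons with coding models.

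TAP1 and TAP2 encode the 2 chains of the peptide transporter and lie close together in the class II region. TAP1 (ENSG00000168394.11, chr6:32845209-32853978, minus strand) had a summed level of 6.93 FPKM with siRNA 1, 3.95 FPKM with siRNA 2 and 6.98 FPKM in the control. Only the siRNA 2 library stood apart, at 56.5% of the control, while the siRNA 1 library was at 99.2%. The log2 differences were -0.01 with siRNA 1 and -0.69 with siRNA 2, or -0.35 ± 0.48 (SD, n = 2), so the siRNAs differed by more than their mean differed from the control (limma SE 0.46, unadjusted p = 0.464, adjusted p = 1.00). The largest TAP1 transcript held 169 (siRNA 1), 92.4 (siRNA 2) and 179 (control) read equivalents. The 95% counting interval of its log2 ratio was -0.32 to 0.31 with siRNA 1 and -1.23 to -0.48 with siRNA 2. TAP1-205, a noncoding model, was the highest transcript at 1.56 FPKM (siRNA 1), 0.860 FPKM (siRNA 2) and 1.54 FPKM (control).

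TAP2 (ENSG00000204267.15, chr6:32821833-32838770, minus strand) had a summed level of 8.27 FPKM with siRNA 1, 3.83 FPKM with siRNA 2 and 7.08 FPKM in the control. The siRNA libraries lay on either side of the control, at 117% (siRNA 1) and 54.1% (siRNA 2). The log2 differences were 0.20 with siRNA 1 and -0.74 with siRNA 2, or -0.27 ± 0.67 (SD, n = 2; limma SE 0.49, unadjusted p = 0.590, adjusted p = 1.00). TAP2 had the widest gap between the siRNAs among the members, -0.94 on the log2 scale for siRNA 2 minus siRNA 1. On the largest transcript that gap was -1.37, with a 95% counting interval of -1.76 to -0.99. The highest transcript was the noncoding model TAP2-203, at 2.96 FPKM (siRNA 1), 1.47 FPKM (siRNA 2) and 2.53 FPKM (control). A same-strand readthrough model listed as AL669918.1-201 shares 2054 bases with TAP2 and had 1.29 (siRNA 1), 0.601 (siRNA 2) and 1.07 (control) FPKM, and reads in the shared bases cannot be assigned to either.

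TAPBP encodes tapasin, which bridges the transporter and the empty class I molecule and edits the bound peptide. It (ENSG00000231925.11, chr6:33299694-33314387, minus strand) had a summed level of 13.3 FPKM with siRNA 1, 8.96 FPKM with siRNA 2 and 15.7 FPKM in the control. Both siRNA libraries were below the control, at 85.1% (siRNA 1) and 57.2% (siRNA 2). The log2 differences were -0.22 with siRNA 1 and -0.74 with siRNA 2, or -0.48 ± 0.37 (SD, n = 2; limma SE 0.44, unadjusted p = 0.294, adjusted p = 1.00). TAPBP-234, of 3759 bases, was both the largest and the highest transcript, at 4.78 FPKM (siRNA 1), 3.40 FPKM (siRNA 2) and 5.81 FPKM (control). With 759 (siRNA 1), 528 (siRNA 2) and 975 (control) read equivalents, its log2 ratio had 95% counting intervals of -0.42 to -0.15 with siRNA 1 and -0.93 to -0.62 with siRNA 2. Both intervals lay below 0, which for the other 4 peptide supply genes held with siRNA 2 and not with siRNA 1.

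PSMB8 and PSMB9 encode catalytic subunits that replace PSMB5 and PSMB6 in the immunoproteasome. PSMB8 (ENSG00000204264.11, chr6:32840717-32844679, minus strand) had a summed level of 4.26 FPKM with siRNA 1, 2.51 FPKM with siRNA 2 and 5.61 FPKM in the control. The control was the highest and siRNA 2 the lowest, at 75.8% (siRNA 1) and 44.8% (siRNA 2) of the control, the lowest share of control among the members. The log2 differences were -0.33 with siRNA 1 and -0.91 with siRNA 2, or -0.62 ± 0.41 (SD, n = 2; limma SE 0.45, unadjusted p = 0.190, adjusted p = 1.00). Depth was thin, with 37.9 (siRNA 1), 21.5 (siRNA 2) and 51.1 (control) read equivalents on the largest transcript. The 95% counting interval of its log2 ratio was -0.99 to 0.29 with siRNA 1 and -1.89 to -0.35 with siRNA 2. PSMB8-203, a coding model, was the highest transcript at 0.845 FPKM (siRNA 1), 0.496 FPKM (siRNA 2) and 1.11 FPKM (control).

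PSMB9 (ENSG00000240065.8, chr6:32844136-32859851, plus strand) had a summed level of 2.94 FPKM with siRNA 1, 1.76 FPKM with siRNA 2 and 3.47 FPKM in the control. It had the order of PSMB8, at 84.8% (siRNA 1) and 50.8% (siRNA 2) of the control. The log2 differences were -0.18 with siRNA 1 and -0.69 with siRNA 2, or -0.44 ± 0.36 (SD, n = 2; limma SE 0.43, unadjusted p = 0.330, adjusted p = 1.00). With 31.9 (siRNA 1), 19.4 (siRNA 2) and 39.4 (control) read equivalents, the 95% counting interval of the largest transcript's log2 ratio was -0.93 to 0.50 with siRNA 1 and -1.80 to -0.10 with siRNA 2. Its highest transcript, PSMB9-208, was at 0.918 FPKM (siRNA 1), 0.553 FPKM (siRNA 2) and 1.08 FPKM (control). PSMB9 and PSMB8 lie on opposite strands and their listed exons share 139 bases. Counting in the files kept strands apart as far as nested transcripts show, since a single-exon transcript inside an exon held more bases than the outer one in 49 of 836 opposite-strand pairs and in 0 of 1971 same-strand pairs.

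**Figure D3:**
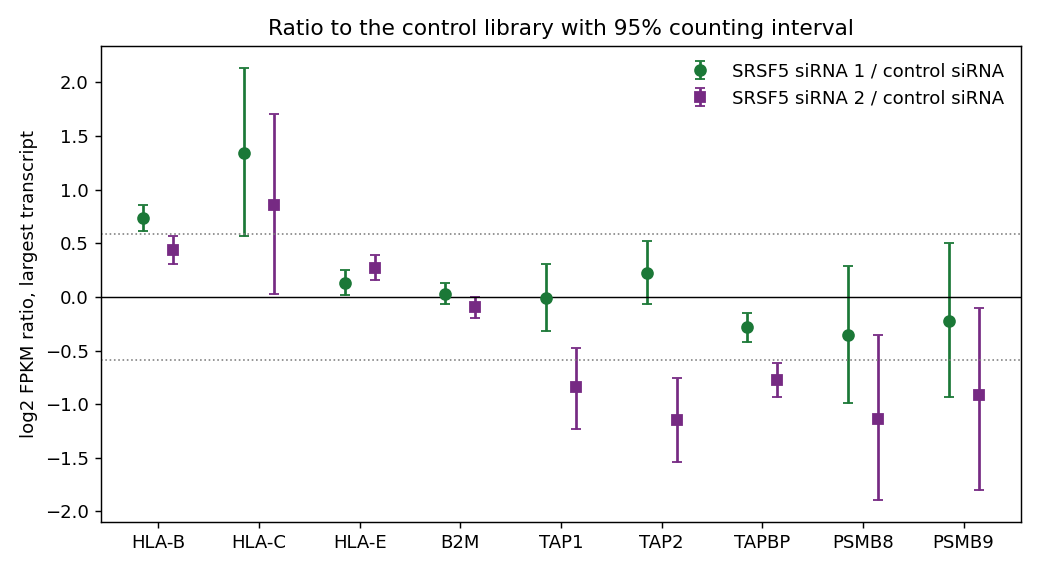
Log2 FPKM ratio to the control library of the transcript with the most bases of each gene, for SRSF5 siRNA 1 and SRSF5 siRNA 2, with 95% counting intervals as bars and 1.5-fold as dotted lines. The siRNA 2 intervals of TAP1, TAP2, TAPBP, PSMB8 and PSMB9 lie below 0, and those of HLA-B lie above 0 for both siRNAs (0.61 to 0.85 and 0.31 to 0.56).

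Counted by a fold of 1.5 on the log2(summed FPKM + 1) scale, 5 of 9 members were lower with siRNA 2 than in the control (TAP1, TAP2, TAPBP, PSMB8 and PSMB9), where 10.1% of all 13923 genes were. The members were chosen with earlier results known and this count after seeing the data, so its comparison with all genes is not an independent test. This count depends on the filter and on the 1 FPKM added before the log. With 0.1 FPKM added instead, the same 5 had log2 differences of -0.80 to -1.13, and 12.6% of all genes were lower. The mean over transcripts keeps the FPKM ratio of the sum. With it 0 of the 5 members past the filter were lower by that fold (TAP2 -0.45, TAPBP -0.46). With the highest transcript 1 of 6 was (TAPBP -0.63, beside TAP1 -0.45 and TAP2 -0.52). On the summed level with 1 FPKM added, 0 of 9 were lower by that fold with siRNA 1, against 5.47% of all genes. In both siRNA libraries together 0 of 9 were lower, against 1.47% of all genes. On the upper side, 2 of 9 were higher with siRNA 1 (HLA-B and HLA-C, 6.18% of all genes), 1 with siRNA 2 (HLA-C, 13.2%) and the same 1 in both (3.19%). The HLA-C count rests on its chromosome 6 copy, with 20.9 read equivalents in the control. With the highest copy of each gene, or with alternate copies added, 0 members were higher in both. The control library is the same for both siRNAs, which ties their values together.

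Set directly against each other on the log2(summed FPKM + 1) scale, siRNA 2 and siRNA 1 differed by at least 1.5-fold in 2 of 9 members. These were TAP1 (-0.68) and TAP2 (-0.94), both lower with siRNA 2, where 10.5% of all genes were lower and 13.7% higher. PSMB8 (-0.58), TAPBP (-0.53) and PSMB9 (-0.51) were just short of that fold on this scale. The added 1 FPKM shrinks the differences of such low genes, and with 0.1 FPKM added 4 members differed by that fold. The median of siRNA 2 minus siRNA 1 was -0.51 over the 9 members and 0.07 over all tested genes. Against the control the members' median log2 difference was 0.04 with siRNA 1 and -0.69 with siRNA 2, beside -0.02 and 0.05 for all tested genes. The 3 heavy chain genes had medians of 0.67 (siRNA 1) and 0.43 (siRNA 2), and the 5 peptide supply genes had medians of -0.18 (siRNA 1) and -0.74 (siRNA 2).

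In limma, 0.0% of the 13923 genes and 0 of 9 members passed an adjusted p of 0.05 for both siRNA libraries against the control. At an unadjusted p under 0.05 there were 416 genes and 0 members. A robust limma fit called 3 genes and a fit without the mean trend called 0, again with 0 members. The fit has 1 residual degree of freedom, which comes from the difference between siRNA 1 and siRNA 2, and the single control is taken to be as variable. Its SE also borrows variance from all tested genes, so that of HLA-E was far above the SD between the siRNAs. The p-values therefore do not measure the spread between repeated transfections. None of the 69 transcripts moved its share of its gene by 10 percentage points in the same direction with both siRNAs. Bases were counted on every transcript they overlap, and HLA-C-201, HLA-C-202 and HLA-C-203 held the same read equivalents in each library. Shares of overlapping transcripts then follow their lengths, so this count cannot show whether splicing changed. With siRNA 2, 6 of 6 TAP1, 5 of 5 TAP2, 9 of 9 TAPBP, 7 of 7 PSMB8 and 5 of 5 PSMB9 transcripts were below the control, although isoforms share reads. Every listed copy of these 5 genes, alternate haplotypes included, was also at least 1.5-fold lower with siRNA 2, but the copies share reads (13 TAP1, 13 TAP2, 18 TAPBP, 23 PSMB8 and 12 PSMB9 transcripts had the same base count and length on another copy) and are not separate measurements.

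The remaining genes of the pathway were read from lists. Over 82 tested genes of the 88 listed in the 8 other class I lists, the median log2 difference was 0.02 with siRNA 1 and -0.12 with siRNA 2. Of these, 0 were at least 1.5-fold lower and 2 higher in both siRNA libraries, RAET1L and BLMH, beside 1.47% and 3.19% of all tested genes. Against the control, 10 were lower and 6 higher with siRNA 2, beside 10.1% and 13.2% of all tested genes. With siRNA 1, 3 were lower and 2 higher, beside 5.47% and 6.18%. RAET1L and BLMH are in the higher counts of both siRNAs. These shares of all genes apply to the single lists below as well. limma called 0 of the 82.

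Among the partners of PSMB8 and PSMB9, all 5 tested immunoproteasome and activator genes were below the control with siRNA 2, 3 of them by at least 1.5-fold, and their medians were -0.14 (siRNA 1) and -0.63 (siRNA 2). PSMB10, the third catalytic immunoproteasome subunit, averaged 4.60 FPKM per transcript with siRNA 1, 2.04 FPKM with siRNA 2 and 6.40 FPKM in the control, a log2 difference of -0.46 (siRNA 1) and -1.56 (siRNA 2). PSME1, a subunit of the interferon-inducible proteasome activator, was at 19.7 (siRNA 1), 15.9 (siRNA 2) and 26.1 (control) FPKM per transcript. Its partner PSME2 was at 3.84 (siRNA 1), 2.72 (siRNA 2) and 4.25 (control) FPKM per transcript. POMP, the assembly chaperone of both kinds of proteasome, was nearer the control, with log2 differences of 0.11 (siRNA 1) and -0.13 (siRNA 2).

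The 14 constitutive core subunits were also lower with siRNA 2 than in the control in 13 of 14 genes. Their medians were 0.08 (siRNA 1) and -0.35 (siRNA 2), and PSMA3 (0.02 and -0.71) was the 1 gene at least 1.5-fold lower with siRNA 2. PSMA7, the most abundant, averaged 64.6 FPKM per transcript (siRNA 1), 48.1 FPKM (siRNA 2) and 66.1 FPKM (control), and PSMB1 averaged 54.2 (siRNA 1), 47.1 (siRNA 2) and 52.1 (control) FPKM. Lower values with siRNA 2 were thus seen in both the interferon-inducible and the constitutive proteasome genes, and the difference between these lists was not tested.

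Class I molecules fold and load with the help of general chaperones. The 10 loading and folding genes had medians of 0.08 (siRNA 1) and -0.31 (siRNA 2), with 0 past 1.5-fold in both. HSPA5, the main chaperone of the endoplasmic reticulum, averaged 171.9 (siRNA 1), 197.5 (siRNA 2) and 196.9 (control) FPKM per transcript. CALR, a lectin chaperone of the loading complex, averaged 150.7 (siRNA 1), 142.7 (siRNA 2) and 135.2 (control) FPKM. PDIA3, the thiol oxidoreductase bound to tapasin, was higher in both siRNA libraries, with 100.9 (siRNA 1), 89.2 (siRNA 2) and 68.6 (control) FPKM. The glucosidase genes GANAB (-0.82) and MOGS (-0.68) were the 2 genes at least 1.5-fold lower with siRNA 2; PDIA3, GANAB and MOGS were named after their values were seen.

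The 10 peptide trimming genes had medians of 0.08 (siRNA 1) and -0.16 (siRNA 2). BLMH, a cytosolic bleomycin hydrolase that trims peptides, was higher in both, at 1.29 (siRNA 1), 1.49 (siRNA 2) and 0.792 (control) FPKM per transcript, with log2 differences of 0.65 and 0.85. ERAP1, the main trimming peptidase of the endoplasmic reticulum, stayed near the control at 5.17 (siRNA 1), 4.76 (siRNA 2) and 5.02 (control) FPKM. NRDC, a metallopeptidase, was at 7.55 (siRNA 1), 7.18 (siRNA 2) and 7.44 (control) FPKM. Of the 8 genes that govern class I turnover at the surface, 6 were tested and 0 were 1.5-fold away in both. SUSD6, which with TMEM127 and WWP2 sends class I to degradation, was at 7.10 (siRNA 1), 12.4 (siRNA 2) and 7.27 (control) FPKM per transcript, and TMEM127 was at 10.9 (siRNA 1), 9.97 (siRNA 2) and 11.2 (control) FPKM.

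Among the nonclassical heavy chain genes outside the members, HLA-F was at 0.306 (siRNA 1), 0.336 (siRNA 2) and 0.273 (control) FPKM per transcript. HLA-G did not pass the filter on low values.

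Class I-like molecules went several ways. Of 11 tested genes, 1 was at least 1.5-fold higher in both siRNA libraries and 0 were lower in both. RAET1L, a stress ligand of the NKG2D receptor, averaged 1.68 (siRNA 1), 2.95 (siRNA 2) and 0.904 (control) FPKM per transcript. ULBP2, another NKG2D ligand and a near copy of RAET1L, stayed close to the control with log2 differences of 0.02 (siRNA 1) and 0.07 (siRNA 2), so reads of this family could have been split between the copies. PROCR, the endothelial protein C receptor and the most abundant of the list, was at 9.26 (siRNA 1), 14.5 (siRNA 2) and 10.4 (control) FPKM. With siRNA 2 the iron regulator HFE had the widest difference, at 1.19 (siRNA 1), 0.154 (siRNA 2) and 1.69 (control) FPKM per transcript, and MICA was at 2.56 (siRNA 1), 1.29 (siRNA 2) and 2.78 (control) FPKM; both were named after their values were seen.

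Class I genes are switched on by NLRC5 with RFX and NFY factors and by interferon signalling. Of these 24 genes, all tested, 0 differed by 1.5-fold in the same direction with both siRNAs, 3 were lower with siRNA 1 and 1 was lower with siRNA 2, and the medians were -0.10 (siRNA 1) and 0.04 (siRNA 2). JAK1, a kinase of the interferon receptors, had the highest level at 11.0 (siRNA 1), 11.7 (siRNA 2) and 10.1 (control) FPKM per transcript. IFNGR1, the ligand-binding chain of the interferon gamma receptor, was at 8.77 (siRNA 1), 8.38 (siRNA 2) and 7.57 (control) FPKM. NLRC5 and IRF1 are added for their roles, with values seen. The class I transactivator gene NLRC5 had log2 differences of 0.09 (siRNA 1) and 0.57 (siRNA 2). IRF1, which binds elements such as those printed above, was at 0.10 (siRNA 1) and 0.22 (siRNA 2).

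Interferon-stimulated genes outside antigen presentation were counted in the same way. Of 33 tested, 10 were lower than the control by that fold with both siRNAs and 0 were higher, beside the 1.47% of all genes and 0 of 9 members that were lower in both. This list was drawn up with earlier results of these libraries known. Its medians were -0.20 (siRNA 1) and -0.59 (siRNA 2). The 6 farthest below were IFI6 (-2.44 and -2.93), IFI27 (-2.00 and -1.84), MX1 (-1.14 and -2.26), OAS2 (-1.99 and -1.37), BST2 (-1.30 and -1.75) and XAF1 (-1.80 and -1.15), antiviral or membrane proteins of the interferon response, with siRNA 1 given before siRNA 2. The 2 genes of the list with the highest mean FPKM per transcript were DTX3L with log2 differences of -0.15 (siRNA 1) and -0.29 (siRNA 2) and IFIT3 with -0.16 (siRNA 1) and -0.53 (siRNA 2).

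**Figure D4:**
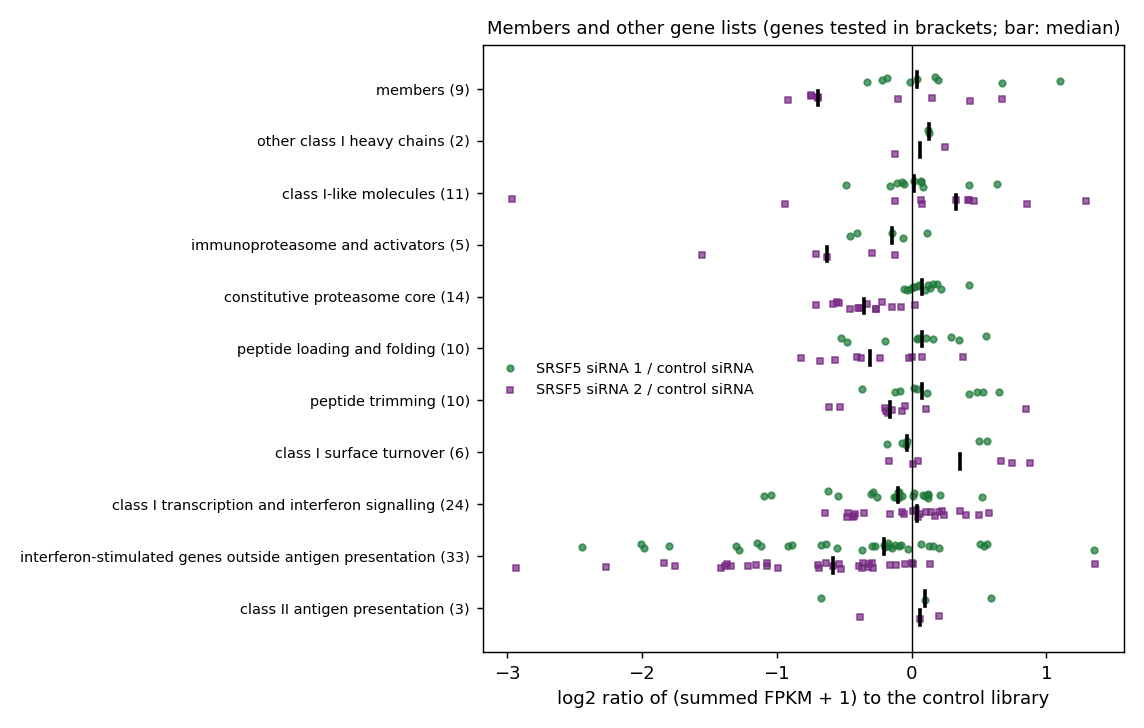
Log2 ratio of (summed FPKM + 1) to the control library for every tested gene of each list, SRSF5 siRNA 1 (upper points of each row) and SRSF5 siRNA 2 (lower points), with the median as a black bar. The members' bars lie at 0.04 and -0.69, and those of the interferon-stimulated genes at -0.20 and -0.59.

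Class II antigen presentation, which professional presenting cells use, was largely below the filter here. Of 11 genes, 3 passed the filter and 0 of these were 1.5-fold away in both siRNA libraries. HLA-DQB1 was the highest, with 3.65 (siRNA 1), 1.81 (siRNA 2) and 2.39 (control) FPKM per transcript. HLA-DQA1 was at 0 FPKM in every library, and how reads of HLA genes were placed is not known, so the HLA-DQB1 level is uncertain. CTSS, a lysosomal protease, was at 1.08 (siRNA 1), 1.91 (siRNA 2) and 1.82 (control) FPKM. The invariant chain gene CD74 was at 0.152 (siRNA 1), 0.169 (siRNA 2) and 0.135 (control) FPKM.

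The tested genes whose pair of log2 differences lay nearest to the members' median pair, among 7730 candidates with a mean summed FPKM of at least 10, were sought over these 3 libraries. They were CPT2 (0.03 and -0.69), ASPM (0.05 and -0.68), NRP1 (0.04 and -0.71), PCCB (0.06 and -0.69) and HIGD1A (0.03 and -0.67), with siRNA 1 given before siRNA 2. Their Euclidean distances ran from 0.0059 to 0.023 on the log2 scale. CPT2 had a summed level of 12.1 FPKM with siRNA 1, 6.95 FPKM with siRNA 2 and 11.8 FPKM in the control. The search was set to find genes near this pair, so their likeness is no separate result. The pair joins the siRNA 1 value of B2M to the siRNA 2 value of TAP1, and HLA-B, HLA-C and HLA-E lay above the control with both siRNAs.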

How the data were processed

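Sequencing libraries of HaCaT RNA were prepared with SMARTer chemistry, per the labels' protocols. The authors deposited FPKM for each transcript beside its type, length, strand and exons, per the file headers. The builds GRCm38, mm10 and GRCh38.p12 are named without a role, per the submitters' processing notes. Aligner and counter: not given in the sources used here. In 100% of values, FPKM times length was a whole multiple of 1 step per library (tolerance 0.05), read as a count of bases. Of base counts in genes with 1 transcript, 44.6% (siRNA 1), 43.8% (siRNA 2) and 43.5% (control) were multiples of 100, so 100 bases are called a read equivalent. Bases were counted for each transcript they overlap, so a summed level grows with the number of listed transcripts and is a relative level. Counting intervals are exact, at 95%, and leave out every error except that of counting, because PCR copies of a molecule are not independent.

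Of 247012 transcripts per library, 226669 on chromosomes were used, 20182 on alternate scaffolds were kept for the comparison of copies, and 161 duplicates were left out. Symbols matched 60259 of 66664 listed gene IDs. Transcripts were summed per gene, and genes averaging at least 1 FPKM were compared on log2(FPKM + 1), a scale that shrinks the differences of low genes. limma 3.58.1 (R 4.3.3, trend, Benjamini-Hochberg) set 2 SRSF5 siRNA libraries against 1 control and was tested on simulated data. The files give no counts per gene, so no count model was fitted. Tables were made with Python 3.11.15, pandas 2.3.3, SciPy 1.17.1 and matplotlib 3.10.9. Promoters are RefSeq windows of GRCh38.p14.

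Named are all members, SRSF5, list genes past 1.5-fold in the same direction with both siRNAs (at most 6 a list) and the 2 highest of each list. The 5 genes nearest to the members' median pair are named too. Members and lists were chosen with earlier results of these data known. Alternatives were the transcript summary, scaling, pseudocount, filter, scaffold copies, the limma settings and leaving out a library.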

Additional observations from a re-analysis of the deposited data

How the results depend on the processing

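Taking each gene as its mean over transcripts left 5 members past the filter of 1 FPKM; 0 members were then lower with siRNA 2, 0 were higher in both, 1 differed between the siRNAs, the median with siRNA 2 was -0.10 and 0 other pathway genes were higher in both. The mean keeps the FPKM ratio of the sum, so these shifts came from the filter and the added 1 FPKM. With the highest transcript of each gene 6 members were left. The counts were then 1 lower with siRNA 2 (TAPBP), 0 higher in both, 1 differing and 0 pathway genes. Adding alternate haplotype copies gave 0 members higher in both and 5 that differed between the siRNAs, and taking the highest copy of each gene gave 0 and 4. A pseudocount of 0.1 gave 4 members that differed and 4 pathway genes higher in both. A filter at 5 FPKM left 7 members, of which 3 were lower with siRNA 2, with a median of -0.10 and 1 pathway gene higher in both. Scaling without mitochondrial transcripts gave 5 members that differed between the siRNAs. The highest copy and the count of members lower with siRNA 2 were chosen after seeing the data.

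With 1 siRNA library left out, the members lower than the control ranged from 0 (siRNA 1 alone) to 5 (siRNA 2 alone), the members higher from 1 to 2, the other pathway genes lower from 3 to 10 and those higher from 2 to 6. B2M ranged from -0.10 to 0.038 and TAP2 from -0.74 to 0.20 on the log2 scale, so the direction of both depends on the siRNA. limma could not be fitted with a library left out, as no residual degree of freedom remains. Over all genes limma called 0, against 3 in the robust fit and 5 with the highest transcript, and 0 members passed in every limma fit run. Depth limits HLA-C, PSMB8 and PSMB9 most, with 20.9, 51.1 and 39.4 read equivalents in the control. No paired analysis was possible because the groups share 1 replicate number at most.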
